A study of Homo sapiens and Mus musculus with 16 samples.

Results

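The accessible regions at 9 chemokine genes were examined in pancreatic cancer cells: CXCL1, CXCL2, CXCL5, CXCL10, CXCL12, CXCL16, CX3CL1, CCL2 and CCL20. A region belonged to a gene where it overlapped the gene body or the 20 kb on either side, and a region near 2 of the genes was counted once. This gave 39 of 118107 regions in HPAF-II control (Cas9) cells, 34 of 97047 in HPAF-II HNF4G-KO cells, 39 of 68074 in the KPC primary tumor line and 44 of 80843 in the KPC liver mets line. The regions came from ATAC-seq, in which a transposase cuts DNA that nucleosomes leave open.

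HPAF-II is an established human pancreatic adenocarcinoma line. Its control cells had received Cas9, and its HNF4G-KO cells carried a CRISPR knockout of HNF4G, a nuclear receptor, from clones that the study pooled for its animal work; whether the 4 HNF4G-KO replicates are clones or pools is not given in the sources used here. KPC is a mouse model of pancreatic cancer, and the study compared a line from its primary tumor with a matched line from liver metastases (mets), both of genotype WT and untreated by the labels. Each of these KPC groups is 1 cell line. Every group had 4 replicates but was given as 1 list of regions, so no value below has a replicate check or a test of significance, and intervals are Wilson 95% intervals that cover counting error only.

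Chemokines are small secreted proteins that draw leukocytes along a gradient by binding receptors on their surface. CXCL1, CXCL2 and CXCL5 bind CXCR2 and attract neutrophils. CXCL10 is induced by interferon and attracts activated T cells through CXCR3, whereas CXCL12 binds CXCR4. CXCL16 and CX3CL1 are made as membrane-bound proteins and are released by the proteases ADAM10 and ADAM17. CCL2 attracts monocytes through CCR2, and CCL20 attracts CCR6-bearing cells. Many of these genes are known targets of NF-kB, the transcription factor that inflammatory cytokines activate. Mouse genes of the same symbol were used, but in the CXCL1, CXCL2 and CXCL5 cluster a shared symbol does not make a one-to-one ortholog.

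The start sites themselves show the NF-kB sequence that most of the human promoters had in common. RefSeq promoters (GRCh38.p14, 250 bases before to 50 after the start) matched 6 of the 9 genes by symbol: CXCL1, CXCL2, CXCL5, CXCL10, CXCL12 and CCL20. Both strands were searched for 7 consensus sequences. The NF-kB consensus has 10 letters and is given by name only. The others were AP-1, written TGANTCA, then HNF4, written CAAAGTCCA, then FOXA, written TGTTTAC, then the interferon response element ISRE, written GAAANNGAA, then STAT, written TTCNNNGAA, and HNF1, written GTTAATNAT. Capitals mark every match, and the promoters shown are those whose start-site values are described below or, for CXCL10, differ between HPAF-II and the KPC lines.
CXCL1 promoter, chr4:73869143-73869442, plus strand: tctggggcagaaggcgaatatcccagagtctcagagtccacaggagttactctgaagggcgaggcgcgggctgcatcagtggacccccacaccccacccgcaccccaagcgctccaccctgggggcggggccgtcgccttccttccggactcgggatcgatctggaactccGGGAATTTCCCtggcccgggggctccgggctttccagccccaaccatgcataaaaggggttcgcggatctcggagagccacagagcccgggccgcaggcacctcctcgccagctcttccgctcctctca
CXCL2 promoter, chr4:74099146-74099445, minus strand: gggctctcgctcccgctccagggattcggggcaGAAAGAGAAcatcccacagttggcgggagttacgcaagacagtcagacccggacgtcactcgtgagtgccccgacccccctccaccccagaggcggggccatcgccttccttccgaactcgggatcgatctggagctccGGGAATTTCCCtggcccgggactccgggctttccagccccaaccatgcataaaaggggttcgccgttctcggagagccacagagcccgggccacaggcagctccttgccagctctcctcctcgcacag
CXCL5 promoter, chr4:73998628-73998927, minus strand: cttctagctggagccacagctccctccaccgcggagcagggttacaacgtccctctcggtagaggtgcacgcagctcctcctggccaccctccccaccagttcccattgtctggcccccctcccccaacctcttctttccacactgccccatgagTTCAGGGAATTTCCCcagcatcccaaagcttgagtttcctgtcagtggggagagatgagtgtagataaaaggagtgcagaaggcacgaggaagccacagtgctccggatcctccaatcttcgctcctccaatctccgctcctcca
CXCL10 promoter, chr4:76023448-76023747, minus strand: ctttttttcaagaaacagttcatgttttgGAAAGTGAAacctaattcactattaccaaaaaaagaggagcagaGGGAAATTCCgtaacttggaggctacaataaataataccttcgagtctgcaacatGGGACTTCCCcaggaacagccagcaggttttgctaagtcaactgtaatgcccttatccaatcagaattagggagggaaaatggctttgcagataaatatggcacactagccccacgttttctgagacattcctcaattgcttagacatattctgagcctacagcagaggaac
CCL20 promoter, chr2:227813592-227813891, plus strand: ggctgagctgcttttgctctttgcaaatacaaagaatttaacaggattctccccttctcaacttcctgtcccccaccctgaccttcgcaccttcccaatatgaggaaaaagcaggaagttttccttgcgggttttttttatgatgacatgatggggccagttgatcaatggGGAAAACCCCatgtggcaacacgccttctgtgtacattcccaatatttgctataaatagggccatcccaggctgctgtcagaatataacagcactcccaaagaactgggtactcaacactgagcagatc
In CXCL1, CXCL2 and CXCL5 the NF-kB matches on the 2 strands overlapped by all but 1 base, and the first began at position -79, -78 and -91 from the start, in that order. In CXCL5 a STAT match ran into them. CCL20 had 1 NF-kB match, at -79. CXCL10 had 2, at -177 and -122, with an ISRE match at -221, and CXCL2 had an ISRE match at -217. CXCL12 had none of the 7 sequences. An NF-kB match was thus in 5 of 6 promoters of these genes, against 5.91% of the 35116 promoters in the table. The 5 are not independent, because CXCL1, CXCL2 and CXCL5 lie in the same cluster and hold the same matched string. Many of these genes were also known NF-kB targets beforehand. None of the 6 held an AP-1, HNF4, FOXA or HNF1 match. A match is a string of letters and no measurement of binding.

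How strongly a region was called was read from the score that the authors deposited with it, as a percentile: the percentage of regions in the same list with a lower score, ties averaged. The scale of the score is not stated, so scores were ranked within a list and never compared directly. Because the HNF4G-KO list is shorter than the control list and the mets list is longer than the primary tumor list, percentiles shift between lists for regions in general. Over all 88632 shared HPAF-II regions the median change was -4.65 points from control to HNF4G-KO (quartiles -13.8 and 1.09). Over all 62280 shared KPC regions it was 3.67 points from primary tumor to mets (quartiles -2.85 and 12.4). Ranked among shared regions only, these medians were 0.68 and 0.99, and that ranking is given below where it matters. Each list pools many cells, so fewer open cells and less open chromatin per cell cannot be told apart.

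Start-site regions of cell type markers were looked up in each list. All 6 epithelial markers had one in every list, among them EPCAM, CDH1 and KRT19. None of the 5 immune markers, PTPRC and CD3E among them, and none of the 3 endothelial markers had one in any list. Fibroblast and mesenchymal markers had one for 4 of 5 genes in both HPAF-II lists, namely COL1A1, COL1A2, PDGFRA and VIM. In both KPC lists 2 of 5 had one, Col1a1 and Vim. The highest mesenchymal marker stood at 86.7 in control and 94.1 in HNF4G-KO, and the highest epithelial one at 84.4 and 82.2. In the primary tumor and mets the mesenchymal values were 75.8 and 79.8, and the epithelial ones 81.8 and 86.5. These regions alone thus do not separate epithelial from mesenchymal cells. Of the hepatocyte markers, SERPINA1 had a start-site region in both HPAF-II lists and Ttr had one in the primary tumor list. The mets list had none of the 4 that were found in the mouse. The main start site of HNF4G had no region within 1 kb in either HPAF-II list, and regions of open chromatin do not check a knockout made by editing an exon.

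In HPAF-II, the start-site regions of chemokine genes ranked lower in HNF4G-KO than in control cells. Of the 9 genes, 6 had a region within 1 kb of the main start site, namely CXCL1, CXCL2, CXCL5, CXCL16, CX3CL1 and CCL20, and in all 6 it was present in both lists. All 6 ranked lower in HNF4G-KO by rank in the whole list, with a median change of -21.2 points, and all but CXCL1 did so among shared regions only. Of 13168 protein-coding genes with a shared start-site region, 54.5% ranked lower, with a median change of -0.37 points (5th to 95th percentile, -15.0 to 14.5). This background was computed by rank in the whole list only. The 6 fell into 2 sizes of change, with changes of -33.2 to -35.9 points at CXCL5, CCL20 and CX3CL1 and of -6.70 to -9.27 at CXCL2, CXCL1 and CXCL16. Among changes of all shared HPAF-II regions, the larger ones lay at the 2.93rd to 4.00th percentile. The smaller ones lay at the 35.6th to 43.0th, near the middle of all shared regions. Over all shared regions at the 9 loci, 21 of 30 (70.0%, 52.1 to 83.3) ranked lower, which is the share among all shared HPAF-II regions, 70.0%. The median change of the 30 was -8.28 points. Ranked among shared regions only, 60.0% of the 30 and 46.6% of all shared regions ranked lower.

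The neutrophil-attracting genes differed among themselves in HPAF-II. At CXCL5 (ENSG00000163735.7, hg38 chr4:73995642-73998677, minus strand), the start-site region at chr4:73998170-73999053 stood at percentile 73.2 in control and 40.0 in HNF4G-KO. Its change of -33.2 points lay at the 0.657th percentile of changes among protein-coding start sites and at the 4.00th percentile of those among all shared regions. The 2 other regions of this locus also ranked lower. One lay 10.4 kb downstream, at the start of PPBP, which encodes a platelet chemokine precursor, and stood at 35.5 in control and 8.54 in HNF4G-KO. The other lay 7.0 kb upstream and stood at 81.5 and 73.0.

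At CXCL1 (ENSG00000163739.5, chr4:73869393-73871308, plus strand), the start-site region stood at 64.6 in control and 57.8 in HNF4G-KO. CXCL1 was the one start site whose direction depended on the ranking: among shared regions only, its change was 1.74 points upward. Its other regions, 1.4 kb and 15.9 kb upstream, were in the control list alone, at percentiles 33.9 and 5.44. The more distant of these lay at the start of PF4V1, another gene of the cluster.

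At CXCL2 (ENSG00000081041.9, chr4:74097040-74099196, minus strand), the start-site region stood at 83.8 in control and 77.1 in HNF4G-KO, and among shared regions only the change was -2.97 points. The strongest region of the HPAF-II member loci lay 10.4 kb upstream of CXCL2, and it was among the highest in both lists, at 96.2 and 96.6. It held 3 AP-1 matches. Further upstream, regions at 13.0 kb and 18.2 kb stood at 55.6 and 54.4, and at 81.5 and 71.8. A further 3 regions, all control-only, lay 1.3 kb and 2.7 kb downstream of the start and at the far edge of the window, at percentiles 13.1, 38.1 and 17.9, and no CXCL2 region was in HNF4G-KO alone.

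CXCL10 (ENSG00000169245.6, chr4:76021118-76023497, minus strand) had no start-site region in either HPAF-II list. Its strongest neighbor, 16.1 kb downstream in an intron of CXCL9 and at that gene's start, stood at 93.8 in control and 85.7 in HNF4G-KO. A second shared region, 6.8 kb downstream in an intron of ART3, stood at 86.4 and 71.8. Both regions upstream of CXCL10 were control-only, at 24.4 (5.1 kb) and 42.6 (12.7 kb), and the latter lay at the start of CXCL11. CXCL9 and CXCL11 encode the other interferon-induced ligands of CXCR3. Each of the control-only regions held an NF-kB match, and the nearer one held 2 ISRE matches as well.

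CXCL12 (ENSG00000107562.18, chr10:44370165-44386493, minus strand) had 1 shared region, and it ranked higher in HNF4G-KO, as did 9 of the 30 shared regions in all. The region, at chr10:44386562-44386872, stood at 62.9 in control and 75.9 in HNF4G-KO, a change of 12.9 points that was the highest among the 30 shared regions and lay at the 94.4th percentile of all. This region was 69 bp from an alternative start and 1.6 kb upstream of the main one, which had no region within 1 kb. A KO-only region lay 8.2 kb upstream at percentile 8.54.

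The genes of the membrane-bound chemokines both kept their start-site region, at a lower rank in HNF4G-KO. At CX3CL1 (ENSG00000006210.7, chr16:57372477-57385044, plus strand), 1 control region of 1086 bp at chr16:57372192-57373277 stood at 58.4. In HNF4G-KO the same stretch was called in pieces, a region of 483 bp at 22.5, which had the longer overlap, and one of 223 bp at 21.4. The change of -35.9 points lay at the 0.406th percentile among protein-coding start sites and at the 2.93rd among all shared HPAF-II regions. Near an alternative start inside the gene, regions went both ways. The one nearest to it, 5.0 kb downstream of the main start, stood at 68.6 in control and 77.2 in HNF4G-KO. Another within 1 kb of it, 5.6 kb downstream of the main start, stood at 72.2 and 61.1. The region at 5.0 kb held 4 NF-kB and 3 AP-1 matches, whereas the main start-site region held no match to any of the 7 sequences. Over the 8 shared regions of CX3CL1, 4 ranked lower and 4 higher. The locus had 1 control-only region, at 41.7 and beside the start of CCL22, which encodes another chemokine, and 2 KO-only regions, at 6.12 and 2.35.

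At CXCL16 (ENSG00000161921.17, chr17:4733533-4739928, minus strand), the start-site region of 1869 bp stood at 89.8 in control and 80.5 in HNF4G-KO. The same region serves the start of ZMYND15, so its value cannot be assigned to 1 of the genes. A region at the start of MED11, 8.3 kb downstream, stood at 94.7 and 96.1. The remaining shared region stood at 68.4 and 64.9, and 1 control-only region lay 10.4 kb upstream at 16.9.

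Of the CC chemokine genes, CCL20 held the lowest HNF4G-KO start-site value and CCL2 held no region. At CCL20 (ENSG00000115009.13, chr2:227805739-227817564, plus strand), the start-site region at chr2:227813320-227813929 stood at 36.1 in control and 1.23 in HNF4G-KO, where it had narrowed from 610 to 360 bp. Among shared regions only, the change was -19.3 points in place of -34.9. All 8 control regions of the locus were shared, and 6 of them ranked lower in HNF4G-KO. The largest drop in rank of the 30 shared regions was also here, 8.8 kb downstream of the start, from 56.0 to 14.8 (-41.2 points, at the 1.59th percentile of all changes). The center of that region is shown because of this drop, with capitals again marking matches.
CCL20 downstream region, chr2:227822498-227822797, plus strand: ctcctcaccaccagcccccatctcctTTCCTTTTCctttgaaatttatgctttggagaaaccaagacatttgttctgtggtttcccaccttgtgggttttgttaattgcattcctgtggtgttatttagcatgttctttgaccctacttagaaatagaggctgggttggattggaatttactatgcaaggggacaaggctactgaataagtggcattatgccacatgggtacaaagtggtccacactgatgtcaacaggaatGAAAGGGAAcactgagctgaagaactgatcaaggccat
It held 2 ISRE matches and none of the other 6 sequences. A neighboring region 7.8 kb downstream, from 70.0 to 60.0, held the 1 HNF4 match found at the HPAF-II member loci. By contrast, the strongest region of the locus, 4.7 kb downstream, stood at 86.1 in control and 91.2 in HNF4G-KO. The CCL20 regions thus did not change together: the changes ran from -41.2 to 6.02 points with a median of -14.8. CCL2 (ENSG00000108691.10, chr17:34255274-34257208, plus strand) had no region in either HPAF-II list, as did 5.78% of protein-coding genes.

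**Figure D1:**
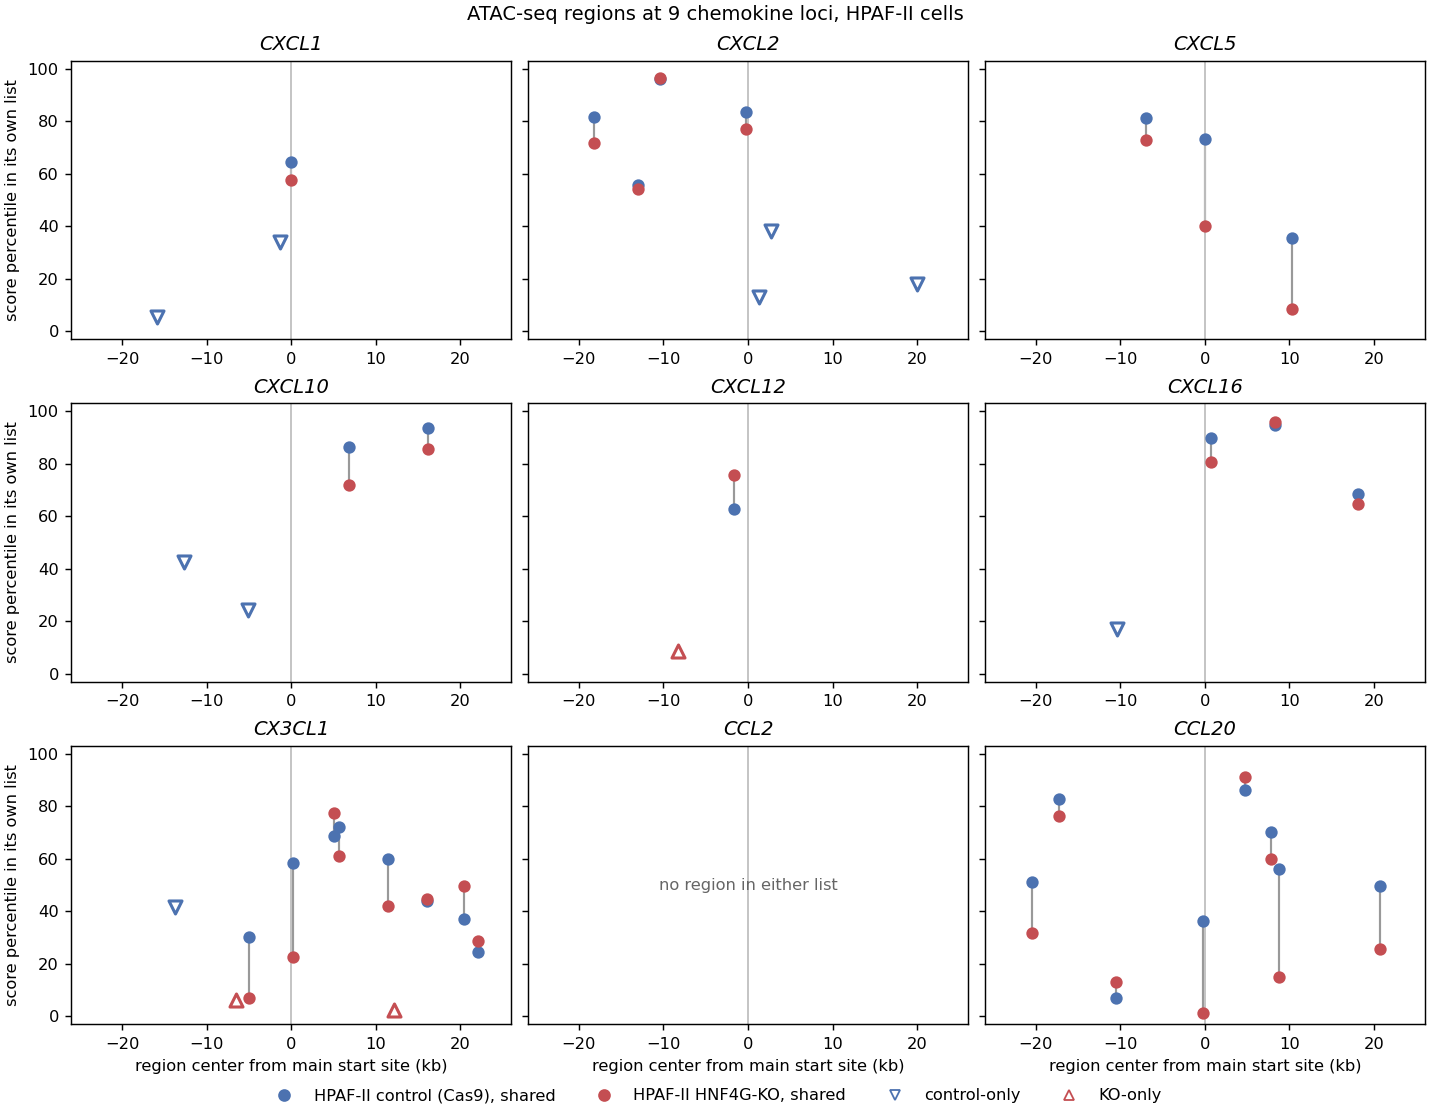
Accessible regions at each chemokine locus in HPAF-II, by distance of the region's center from the main start site in the direction of transcription (horizontal axis, kb) and score percentile in its own list (vertical axis); gray lines join the same region in the 2 lists and open triangles are regions in 1 list. The 9 control-only regions all lie below the 50th percentile, CCL20 and CX3CL1 hold 8 shared regions each, and CCL2 is empty.

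Regions in only 1 HPAF-II list made up shares at the chemokine loci that lay near those of the whole lists. Control-only regions made up 9 of 39 (23.1%, 12.6 to 38.3) against 25.0% of the control list. KO-only regions made up 3 of 34 (8.82%, 3.05 to 23.0) against 6.76% of the HNF4G-KO list. Both backgrounds lay inside the intervals. At least 1 control-only region was at 5 of 9 loci, against 63.1% of all protein-coding genes, and at least 1 KO-only region was at 2 of 9, against 25.5%. The control-only regions of these loci had a median percentile of 24.4, with none above 42.6, where all control-only regions of the list had a median of 17.9. They were narrow, with a median of 303 bp against 617 bp for the shared regions of these loci. No start-site region of the 9 genes was in 1 HPAF-II list alone.

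In the KPC lines the shared start-site regions went the other way, ranking higher in mets than in the primary tumor. Of the 9 mouse genes, 5 had a start-site region shared by both lists: Cxcl5, Cxcl10, Cxcl16, Cx3cl1 and Ccl20. Cxcl2 is outside this count, because the region covering its start was tumor-only, at 3.17. The 5 shared regions all ranked higher in mets by rank in the whole list, with a median change of 13.9 points. All but Cxcl5 did so in lists of equal size. Among changes of all shared KPC regions, the 5 lay at the 70.5th to 85.4th percentile. Among 11525 protein-coding genes with a shared start-site region, 39.3% ranked lower in mets and the median change was 1.37 points (5th to 95th percentile, -15.2 to 17.5). Over all shared regions at the loci, 8 of 34 (23.5%, 12.4 to 40.0) ranked lower in mets, against 35.1% of all shared KPC regions, which lies inside the interval. The median change of the 34 was 9.39 points. With both lists cut to the same number of strongest regions, 4 of the 5 start sites still ranked higher, by 9.15 to 12.3 points, and Cxcl5 turned to -1.13. In those lists of equal size, 16 of 32 (50%) shared regions at the loci ranked lower in mets, as did 53.0% of all. Ranked among shared regions only, 32.4% of the 34 and 45.4% of all ranked lower, with median changes of 4.53 and 0.99 points.

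Among the neutrophil-attracting genes of the mouse, Cxcl5 (ENSMUSG00000029371.7, mm10 chr5:90759360-90761624, plus strand) had 10 shared regions, 8 of which ranked higher in mets. Its start-site region was weak in both lists, at 6.10 in the primary tumor and 19.98 in mets. The largest rise of the 34 shared regions lay 1.1 kb upstream of it, from 23.9 to 51.4 (27.6 points, at the 93.8th percentile of all shared KPC regions). A region 6.6 kb downstream went from 67.5 to 89.2, and one 17.1 kb upstream went from 75.2 to 92.0. One region 19.8 kb downstream was tumor-only, at 12.5.

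Cxcl1 (ENSMUSG00000029380.11, chr5:90891241-90893115, plus strand) and Cxcl2 (ENSMUSG00000058427.10, chr5:90903871-90905938, plus strand) lie side by side, and their windows shared 5 primary tumor and 4 mets regions. Cxcl1 had no region within 1 kb of its start in either list. The region covering the start of Cxcl2 was tumor-only, at percentile 3.17, and a separate region 0.8 kb upstream of that start was in both lists, at 6.21 and 7.15. The clearest change of the pair was at chr5:90900286-90901030, between the genes and 3.2 kb upstream of Cxcl2, from 27.4 in the primary tumor to 54.7 in mets. A tumor-only region lay 14.4 kb upstream of Cxcl1 at 26.4, and a mets-only region 10.1 kb upstream at 3.79. The start sites of these genes thus ranked low or were missing in both KPC lists, whereas CXCL1 and CXCL2 stood at 64.6 and 83.8 in HPAF-II control cells.

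Cxcl10 (ENSMUSG00000034855.13, chr5:92346638-92348889, minus strand) also differed between HPAF-II and the KPC lines, for which species and cell line cannot be told apart. Its start-site region, absent from the HPAF-II lists, was the strongest start-site region of the mouse genes, at 82.1 in the primary tumor and 92.7 in mets. In both KPC lists it held 2 NF-kB matches, 1 AP-1 match and 1 ISRE match. Further upstream, regions at 14.5 kb, in Cxcl11, and at 19.8 kb stood at 61.2 and 78.9, and at 38.0 and 58.2. One region 4.9 kb upstream ranked lower in mets, from 54.5 to 45.9. The locus had 1 tumor-only region, at 4.65, and 1 mets-only region, at 6.27. Cxcl12 (ENSMUSG00000061353.11, chr6:117168535-117181367, plus strand) had no region in either KPC list, as was true of 19.2% of protein-coding genes.

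The genes of the membrane-bound chemokines were open at their start sites in both KPC lines. Cxcl16 (ENSMUSG00000018920.11, chr11:70453983-70459984, minus strand) stood at 72.6 in the primary tumor and 86.0 in mets, in a region that also lay at the start of Zmynd15. A second region just inside the gene stood at 27.5 and 36.5. The largest drop in rank of the 34 shared regions was at this locus as well, 19.1 kb downstream, from 67.2 to 53.2. Cx3cl1 (ENSMUSG00000031778.13, chr8:94772009-94782427, plus strand) stood at 59.9 and 76.6 at its start. Of its 5 other shared regions, 3 ranked higher in mets and 2 lower. Cxcl16 had 1 mets-only region, at 1.68, and Cx3cl1 had 2, at 9.21 and 28.0, beside 1 tumor-only region at 20.98.

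At Ccl20 (ENSMUSG00000026166.14, chr1:83116766-83119167, plus strand), all 3 primary tumor regions were shared and ranked higher in mets. The start-site region stood at 35.5 in the primary tumor and 54.0 in mets. Its change of 18.5 points lay at the 95.7th percentile among protein-coding start sites and at the 85.4th among all shared KPC regions. With lists of equal size the change was 9.90 points. Regions 16.9 kb upstream and 3.5 kb downstream stood at 65.7 and 77.8, and at 69.6 and 82.9. Between the first of these and the gene, 2 mets-only regions lay 5.5 kb and 4.9 kb upstream, at 15.2 and 42.0.

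Ccl2 was the one chemokine locus that was empty in the primary tumor and held regions in mets. Ccl2 (ENSMUSG00000035385.5, chr11:82035571-82037453, plus strand) had 3 mets-only regions and none within 1 kb of its start. The strongest, chr11:82032932-82033452, lay 2.4 kb upstream at percentile 61.2, the highest of the 10 mets-only regions. The others lay 3.2 kb upstream at 17.7 and 12.7 kb downstream at 22.4. Of all protein-coding mouse genes, 3.66% had no region in the primary tumor and at least 1 in mets. The central 300 bases of the strongest region are shown because no other member region above the 50th percentile was in 1 list alone.
Ccl2 mets-only region, chr11:82033042-82033341, plus strand: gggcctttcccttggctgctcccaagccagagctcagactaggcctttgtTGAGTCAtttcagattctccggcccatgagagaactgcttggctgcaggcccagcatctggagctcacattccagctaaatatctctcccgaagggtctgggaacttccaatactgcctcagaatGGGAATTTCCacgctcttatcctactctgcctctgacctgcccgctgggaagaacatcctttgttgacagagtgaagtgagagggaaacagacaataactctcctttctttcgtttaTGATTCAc
It held 1 NF-kB match between 2 AP-1 matches. Ccl7, the neighbor of Ccl2 that also encodes a monocyte-attracting chemokine, had 0 regions in the primary tumor and 4 in mets within 20 kb. The windows of the 2 genes overlap, so they are not separate observations.

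**Figure D2:**
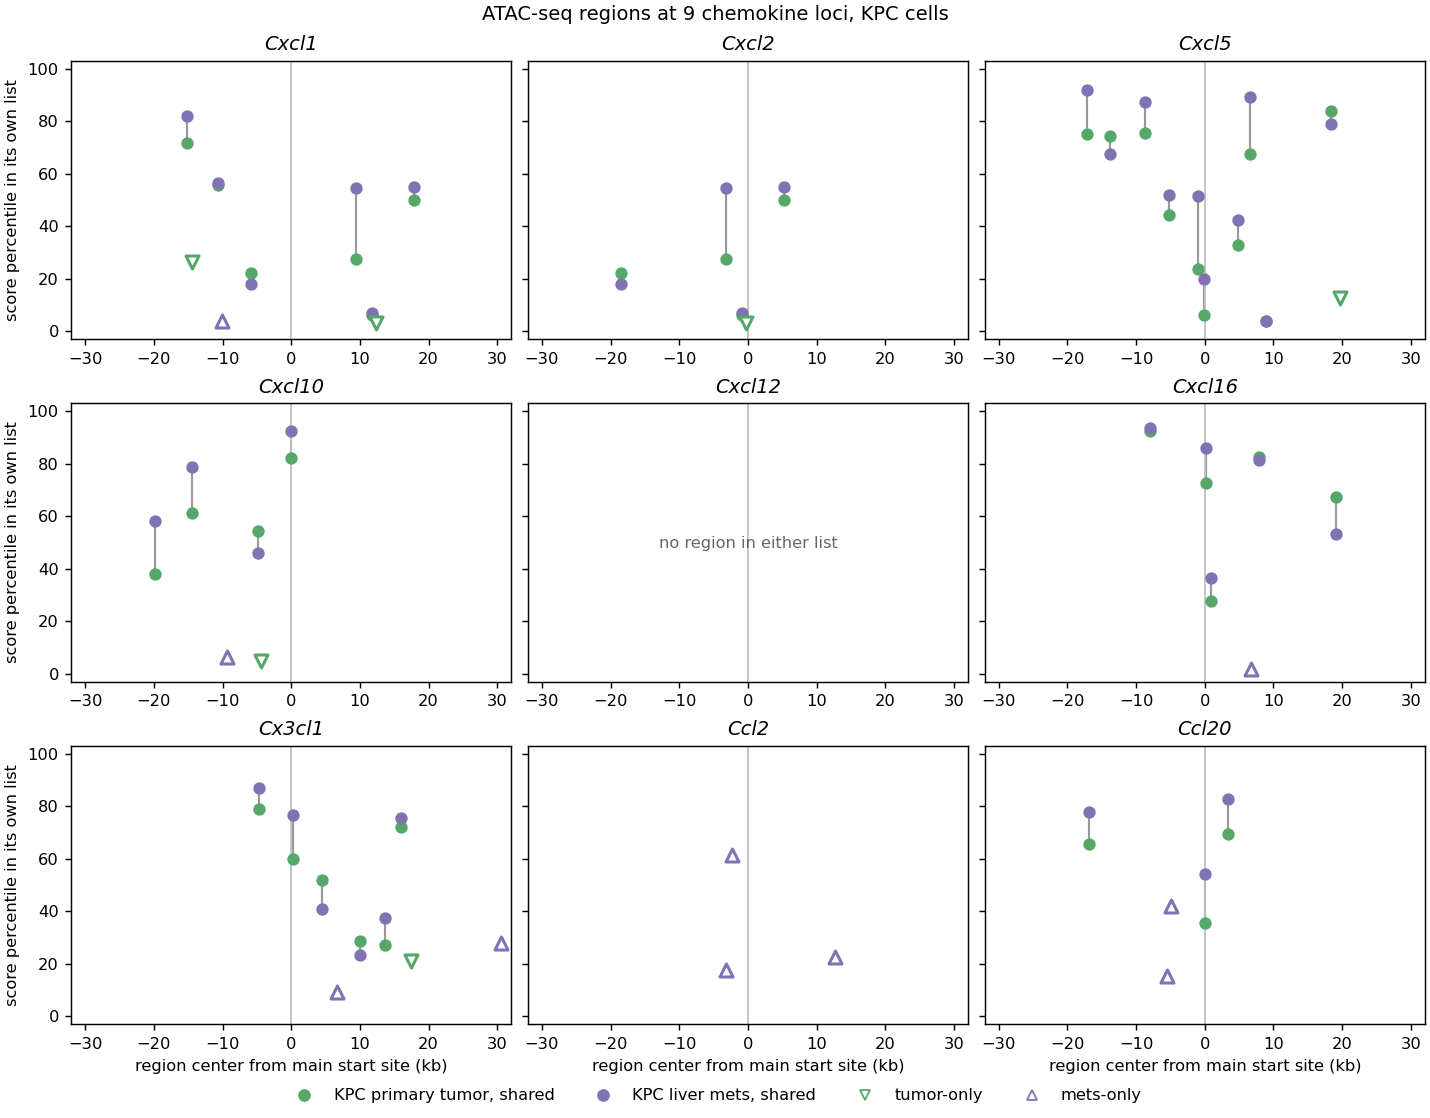
Accessible regions at the mouse genes of the same symbols in the KPC lines, drawn with the same axes and symbols: distance of the region's center from the main start site (kb) against score percentile in its own list. Ccl2 has mets-only regions alone, the highest at 61.2, Cxcl12 is empty, and the regions near Cxcl2 are drawn in the Cxcl1 panel as well where they lie in both windows.

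Regions in only 1 KPC list made up 5 of 39 primary tumor regions (12.8%, 5.60 to 26.7), against 8.51% of that list, and 10 of 44 mets regions (22.7%, 12.8 to 37.0), against 20.2% of the mets list. At least 1 tumor-only region was at 5 of 9 loci, where 23.1% of protein-coding genes had one, and Cxcl1 and Cxcl2 shared one of the regions behind this count. With regions within 500 bp of the other list counted as shared, tumor-only regions were left at 2 of 9 loci, Cxcl5 and Cx3cl1, and made up 5.13% of the regions there against 7.09% of all, so that the share at the loci turned from above to below that of the list. At least 1 mets-only region was at 6 of 9 loci, against 42.2%. None of the 5 tumor-only regions stood above 26.4. Of the mets-only regions, 9 of 10 lay below the 50th, with a median of 16.4, where all mets-only regions of the list had a median of 19.4.

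**Figure D3:**
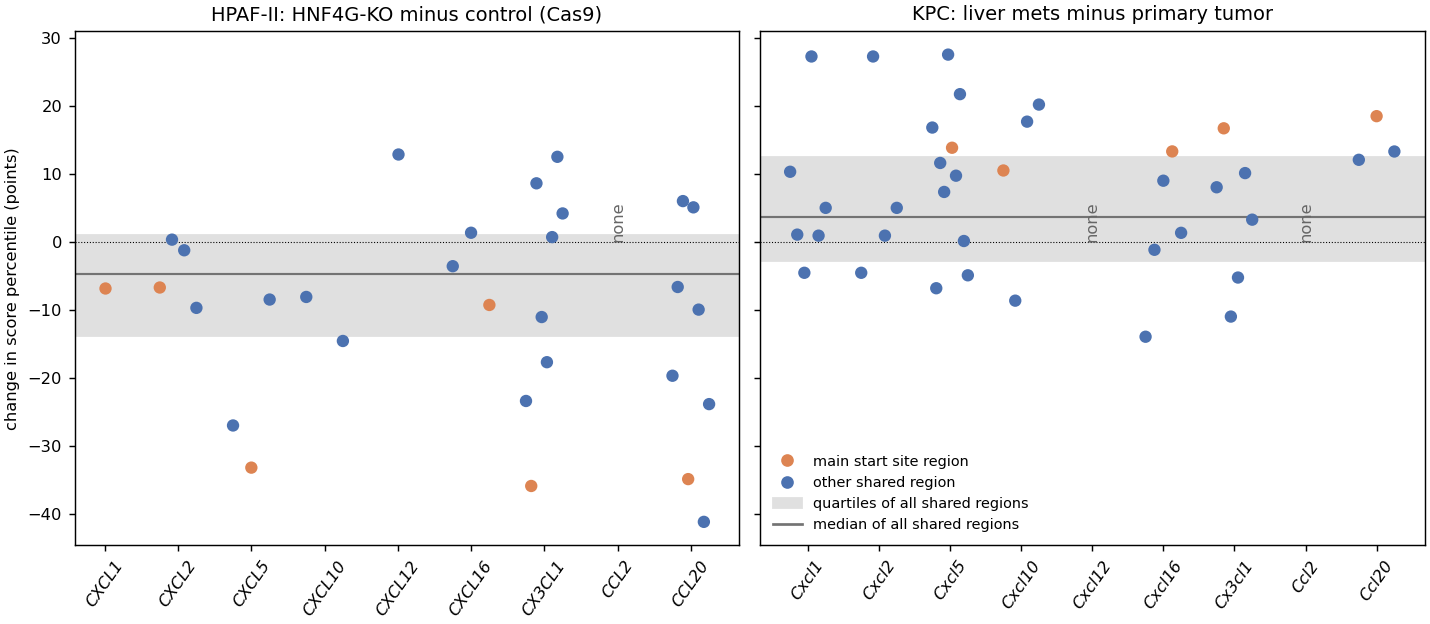
Change in score percentile of each shared region (vertical axis, points; HNF4G-KO minus control on the left, mets minus primary tumor on the right) by gene, with start-site regions in orange and others in blue; the band gives the quartiles and the line the median of all shared regions. The lowest human point is CCL20 at -41.2, and the highest mouse points are Cxcl5 at 27.6 and 1 region at 27.3 that is drawn at both Cxcl1 and Cxcl2.

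Other genes of the pathway were counted in the same windows. The lists of other ligands and of the members share regions, 10 of 68 in control, because CXC genes lie in clusters. Among the other ligands in HPAF-II, the start-site regions of CXCL11 (42.6) and CXCL14 (19.4), a chemokine of epithelia, were control-only. The shared ones with the largest changes were PPBP, described above, CCL5, from 2.27 to 22.8, and CXCL9, also described above. Of their 52 shared regions, 42 (80.8%) ranked lower in HNF4G-KO, against 70.0% of all shared HPAF-II regions. No interval was computed for this share. In the other pathway lists it was 64.4% for receptors, 54.5% for sheddases, 59.4% for NF-kB factors and inhibitors and 76.9% for cytokine and interferon signaling. CXCL8, the human neutrophil chemokine without a mouse counterpart, stood at 70.5 in control and 62.7 in HNF4G-KO and is named here after its value was seen. In KPC, 12 of 44 mets regions of the other ligands (27.3%, 16.3 to 41.8) were mets-only, among them the 4 at Ccl7. The share in the whole mets list, 20.2%, lay inside that interval, and 11 of the 44 are also regions of the 9 chemokine loci. Ccl8 stood at 68.6 in the primary tumor and 85.8 in mets at its start, Cxcl17 at 82.7 and 89.5, and Cxcl3 at 78.0 and 75.4.

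Few of the 14 receptor genes had a start-site region, 4 in control and 2 in both KPC lists. CXCR1 had a control-only one at 33.0. The CXCR3 start-site region, for the receptor of CXCL10, went from 77.3 in control to 26.5 in HNF4G-KO, CX3CR1 from 36.9 to 18.5 and the scavenger receptor ACKR3 from 38.7 to 29.5. In KPC, Cx3cr1 stood at 41.8 and 64.7, and Ackr3 at 71.9 and 81.2, both higher in mets. At the receptor loci 0 of 48 primary tumor regions were tumor-only, against 8.51% of that list (Wilson upper limit 7.41%). Of these 48 regions, 19 were at Cx3cr1 alone, so they are not independent, which the interval does not take into account. Mets-only regions made up 10 of 60 (16.7%, 9.31 to 28.0) at the receptor loci, against 20.2% of the mets list. The sheddase genes were open at nearly equal rank, ADAM10 at 96.7 in control and 94.8 in HNF4G-KO and ADAM17 at 91.2 and 95.1. In KPC, Adam10 stood at 94.5 and 97.6, and Adam17 at 80.9 and 81.9.

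Among the NF-kB factors and inhibitors, start sites moved in both directions. All 10 had a shared start-site region in HPAF-II, of which 4 ranked lower in HNF4G-KO, with a median change of 0.61 points. The largest changes were BCL3, an atypical inhibitor, from 70.6 to 56.5, TNFAIP3, a feedback inhibitor, from 78.8 to 68.9, and NFKBIA, from 65.5 to 73.9. In KPC, 9 of the 10 had one, with a median change of 0.86 points, and Nfkb1 (39.0 to 51.8), Nfkbia (47.9 to 60.2) and Relb (81.9 to 92.3) changed most. Among the cytokine and interferon signaling genes in HPAF-II, the start-site regions of IL1B (54.5) and TNFRSF1A (24.4) were control-only. IL6 went from 79.1 to 67.8, IL1R1 from 65.7 to 71.98 and IRF1 from 87.4 to 92.3. In KPC, Il1r1 (89.2 to 82.0), Il1a (10.0 to 16.4) and Ifngr2 (5.83 to 11.9) changed most. The share of tumor-only regions at these genes was 14 of 68 (20.6%, 12.7 to 31.6), the highest of the 5 pathway lists, against 8.51% of the primary tumor list. Of the 14, 4 were at Il1r1 and 3 at Ifngr2, so they are not independent, which the interval does not take into account. Counting regions within 500 bp as shared was not tried for the pathway lists. In HPAF-II, control-only regions made up 11 of 80 at the NF-kB factors and inhibitors (13.75%, 7.85 to 23.0), against 25.0% of the control list.

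**Figure D4:**
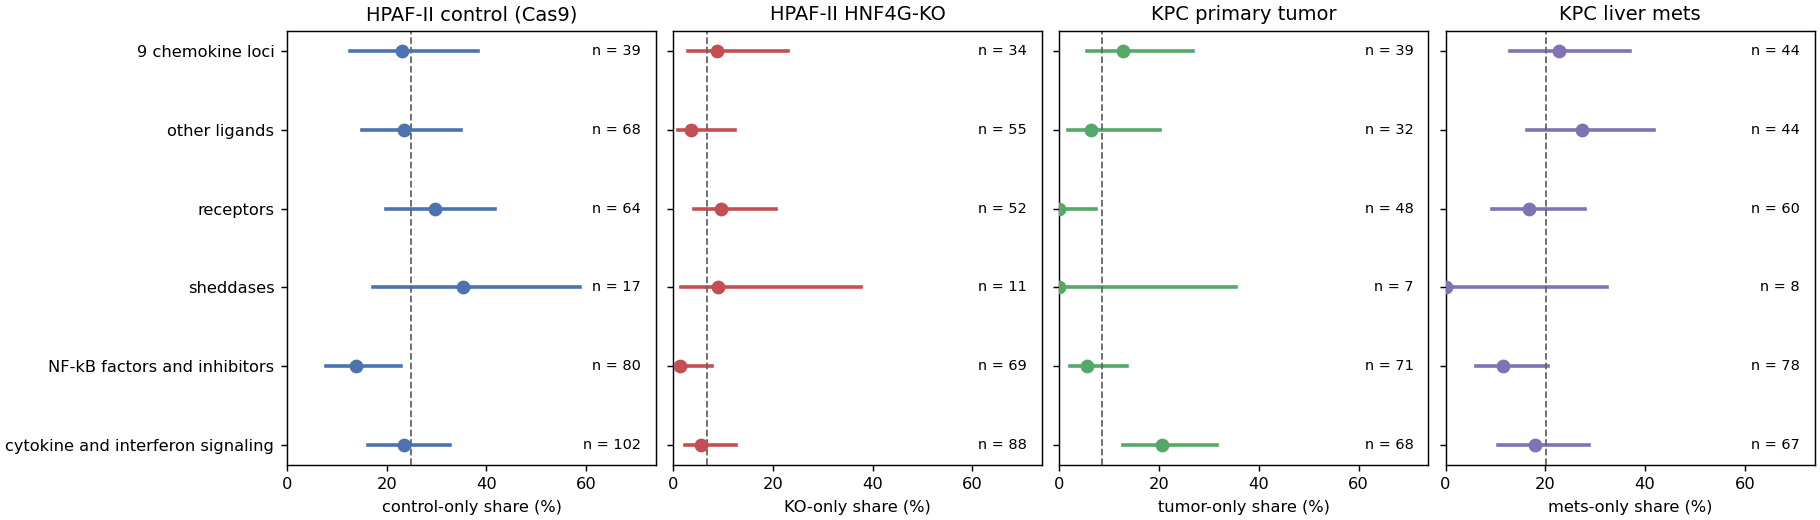
Share of regions in only 1 list of the pair (horizontal axis, percent) at the chemokine loci and at 5 lists of pathway genes, for each of the 4 lists; points are shares with Wilson 95% intervals, n is the number of regions and the dashed line is the share over the whole list. At the 9 chemokine loci the dashed line lies inside the interval in all 4 lists, at 25.0%, 6.76%, 8.51% and 20.2%.

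The same sequences were searched in the regions themselves. An NF-kB match was in 12 of 39 control regions at the chemokine loci (30.8%), against 10.5% of all control regions, and in 9 of 34 HNF4G-KO regions (26.5% against 10.8%). It was in 11 of 39 primary tumor regions (28.2% against 8.63%) and in 11 of 44 mets regions (25.0% against 7.52%). The median width of the member regions was 475 bp in control, where that of all regions was 462 bp. It was 377 against 452 bp in HNF4G-KO and 499 against 516 bp in the primary tumor. In mets the member regions were wider, at 461.5 against 409 bp, which leaves more room for a match. At the HPAF-II start sites, 5 of 6 regions held one, all but CX3CL1, in either list. It was in 3 of 9 control-only and 9 of 30 shared control regions. AP-1 was in 35.9% of the control regions at these loci against 39.1% of all, and in 59.0% of the primary tumor regions against 46.0%. HNF4 was in 1 of 39 control regions (2.56%), where 1.60% of all control regions held it, and in no KPC region at these loci. FOXA was in 5 control regions (12.8% against 9.76%), in 0 of 39 primary tumor regions (9.71% of all) and in 2 of 44 mets regions (8.90% of all). Of these 2, the one at Cxcl1 was mets-only and the one at Cxcl16 was shared. ISRE was in 8 control regions (20.5% against 16.2%), and in 10 primary tumor regions, all of them shared (25.6% against 14.9%). STAT was in 20.5% of the control regions at these loci against 15.0% of all, and HNF1 in 0 of 39 against 1.90%.

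Across the 4 lists, 5 members had a region within 1 kb of any annotated start in each list, and the gene with the most similar set of 4 start-site percentiles was found by Euclidean distance among 10273 protein-coding genes of the same symbol in both species. CXCL16 was nearest to ZMYND15, at a distance of 0 because they share the region, and then to STRA6 (3.08 points). CX3CL1, which enters with regions near its alternative start in human (5.6 kb downstream of the main start in control and 5.0 kb in HNF4G-KO) and with its main start-site region in mouse, was nearest to UBE2E3 (3.70), CXCL2 to VIL1 (4.95), CCL20 to RBMS3 (8.66) and CXCL5 to RBMS2 (9.31). For each gene the highest-ranked region within 1 kb of any start was used. Mouse Cxcl5 thus entered with the region 1.1 kb upstream of its main start (23.9 and 51.4), not with its weaker start-site region. Mouse Cxcl2 entered with the region 0.8 kb upstream of its start (6.21 and 7.15).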

How the data were processed

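ATAC-seq was measured in 16 samples, grouped by their titles. The Omni-ATAC protocol was used per the labels; for ATAC-seq the paper's methods mention HPAF-II alone. The submitters' processing notes name Bowtie2 2.2.6, MACS2 2.1.1.20160309 and DiffBind, with builds hg38 and mm10; the paper states pooling of replicates and a calling threshold for ChIP-seq, but for ATAC-seq neither is given in the sources used here. The authors deposited 1 list per group, with a score per region whose scale is not stated. Total reads are unknown, so depth sets no interval here.

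Genes and start sites came from GENCODE 44 (human) and M21 (mouse). The main start was that of the Ensembl canonical transcript or, in mouse, of the principal isoform, and a start-site region was the nearest within 1 kb. Regions overlapping by 1 bp were shared, each paired with its longest overlap. The members, all gene lists and the naming rule below were chosen with earlier results of these data known. All 9 members are named; of the pathway lists, genes with a start-site region in 1 list alone or among the 3 largest changes of their list. Overlap, distance and percentile steps were tested on simulated lists. Python 3.11.15, numpy 2.4.6 and pandas 2.3.3 were used. Alternatives covered the window, the overlap, the score threshold, lists of equal size and ranking among shared regions.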

Additional observations from a re-analysis of the deposited data

How the results depend on the processing

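Of 34 share values under other windows, overlaps, thresholds and rankings, all but 3 stayed inside the counting interval of the reported share. The KO-only share was 0 of 17 regions (0%) when only the better-scored 50% of each list was kept (Wilson upper limit 18.4%). The tumor-only share was 5.13% when regions within 500 bp of the other list counted as shared, against 7.09% of all primary tumor regions. Inside the interval but over 1.5 times from the reported share were the control-only share with 10 kb on each side (14.3%, against 25.0% of all) and in lists of equal size (14.7% against 15.1%), the tumor-only share with 50 kb (7.94% against 8.51%) and the mets-only share in lists of equal size (13.5% against 14.03%). With lists of equal size, 50% (16 of 32) of shared KPC regions at the loci ranked lower in mets, against 53.0% of all shared regions. The 2 alternatives that re-ranked start-site regions were chosen after seeing the data. Ranked among shared regions only, CXCL1 changed by 1.74 points upward, and with lists of equal size by 0.87 points upward, while the other 5 human start sites ranked lower under both. With lists of equal size, Cxcl5 changed by -1.13 points. Counts of regions in 1 list at single loci differed from those reported, by at least 1 region, in 9 of 36 cases with 10 kb on each side, in 12 of 36 with 50 kb and in 5 of 36 with regions within 500 bp counted as shared. No paired analysis was possible because each group is 1 list, and for the same reason no replicate could be left out. The cause of these shifts was not tested. The number of regions, 34 to 44 per list, limits the precision of every share.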
